A study of Mus musculus with 13 samples.

Results

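Collagens, laminins and matrix glycoproteins are the secreted proteins that build the basement membrane under an epithelium and the interstitial matrix around it. The set was chosen by gene symbol alone: every collagen chain (44 genes), every laminin chain (11 genes) and 13 glycoproteins and proteoglycans given by name, which are Fn1, Nid1, Nid2, Hspg2, Agrn, Sparc, Spock2, Thbs1, Thbs2, Tnc, Vcan, Lum and Dcn. These are 68 of the 32285 genes in the files. All 68 had at least 1 UMI (unique molecular identifier, a counted RNA molecule) in the retained cells, and 39 had at least 1 UMI in every library.

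Single-cell RNA sequencing was done on 10 colon tumors and 3 samples of adjacent colonic mucosa. Every library came from C57BL/6J mice of the genotype ApcMin/+; p16cis/cis, which carry a germline Apc mutation, the initiating lesion of most colon adenomas, together with an epimutation of the p16 gene, and every mouse received the supplemented diet, given to mothers before conception and to the offspring for life. Mouse A (24 weeks) gave tumors 5 to 8 and mucosa 2, mouse B (23 weeks) gave tumors 9 and 10 and mucosa 3, and mouse C (20 weeks) gave tumors 1 to 4 and mucosa 1, so tumors of a mouse share their host. The comparison made here was tumor against adjacent mucosa, and it cannot address the diet or the genotype, which all groups share. Mucosa was dissociated with EDTA and TrypLE and tumors with an enzymatic tumor kit, so tissue and dissociation cannot be told apart.

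After filtering, 85953 tumor cells and 22542 mucosa cells were kept of 137591 barcodes. Sums over all kept cells of a library held 51215898 to 77903739 UMIs in tumors and 72104363 to 90564538 in mucosa, and pairs of libraries shared 8 to 36 cell barcodes. The labels gave 7 libraries as female and differed in sex within a mouse, but all 13 libraries carried RNA of Y-linked genes (104.3 to 128.9 CPM, the count of a gene scaled to the library total) and 1 to 8 UMIs of Xist. Counts of matrix genes between tumor and mucosa are therefore given below with and without the libraries labelled female; the comparison between mice was not run without them.

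In the gut, epithelial cells and the fibroblasts beneath them together lay down the basement membrane: networks of type IV collagen and of laminin trimers, each made of an alpha, a beta and a gamma chain, linked by nidogens and perlecan. Fibril-forming collagens and small proteoglycans such as decorin are products of fibroblasts. Thrombospondins, fibronectin, SPARC and the testican Spock2 are matricellular or adhesive proteins that bind cells and matrix. UMIs were counted at the 3′ end of transcripts, so a level in CPM does not scale with gene length.

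The data first showed which cells held matrix RNA. Of the 55 matrix genes with at least 20 UMIs in tumors, epithelial cells held the largest share for 28, fibroblast-like cells for 18, monocyte- or macrophage-like cells for 6 and endothelial-like cells for 3. Epithelial cells held 98.0% of the Spock2 UMIs, 98.6% of Thbs2, 98.5% of Lama3 and 96.5% of Lama5. Fibroblast-like cells, which were only 62 of the tumor cells, held 94.8% of Col3a1, 91.4% of Col1a2, 90.5% of Dcn and 90.9% of Lum. Cells were clustered without the matrix genes, and clusters were named from markers that do not include them.

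**Figure D1:**
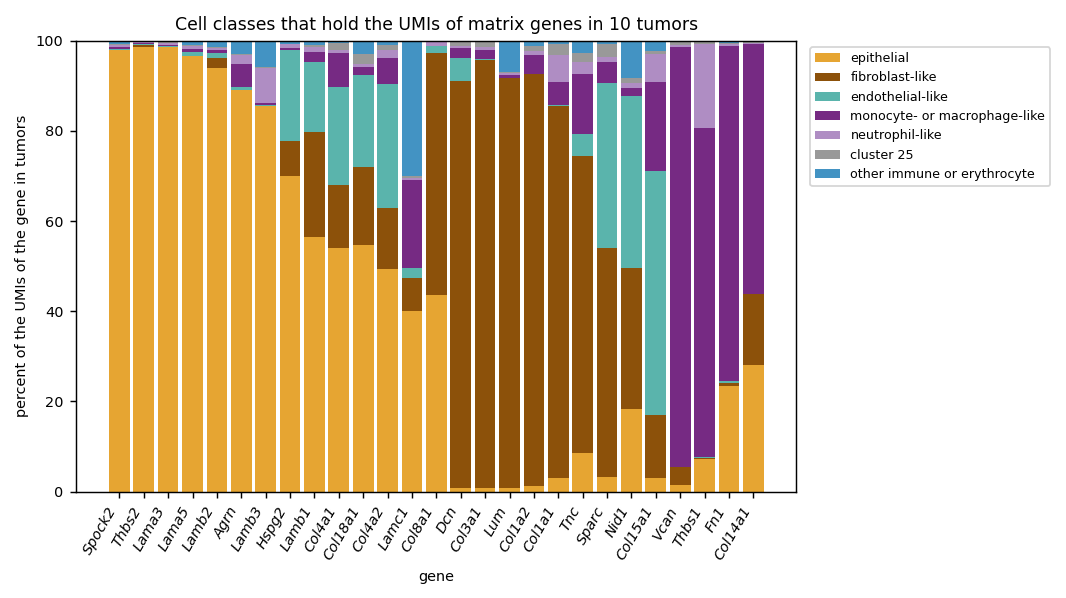
Stacked bars give, for 27 matrix genes (x axis), the percent of the UMIs in the 10 tumors that each cell class held (y axis). Spock2, Thbs2 and the laminins Lama3 and Lama5 were at over 96% epithelial, Dcn and Col3a1 were mostly in fibroblast-like cells, and Vcan, Thbs1 and Fn1 were mostly in monocyte- or macrophage-like cells.

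**Figure D2:**
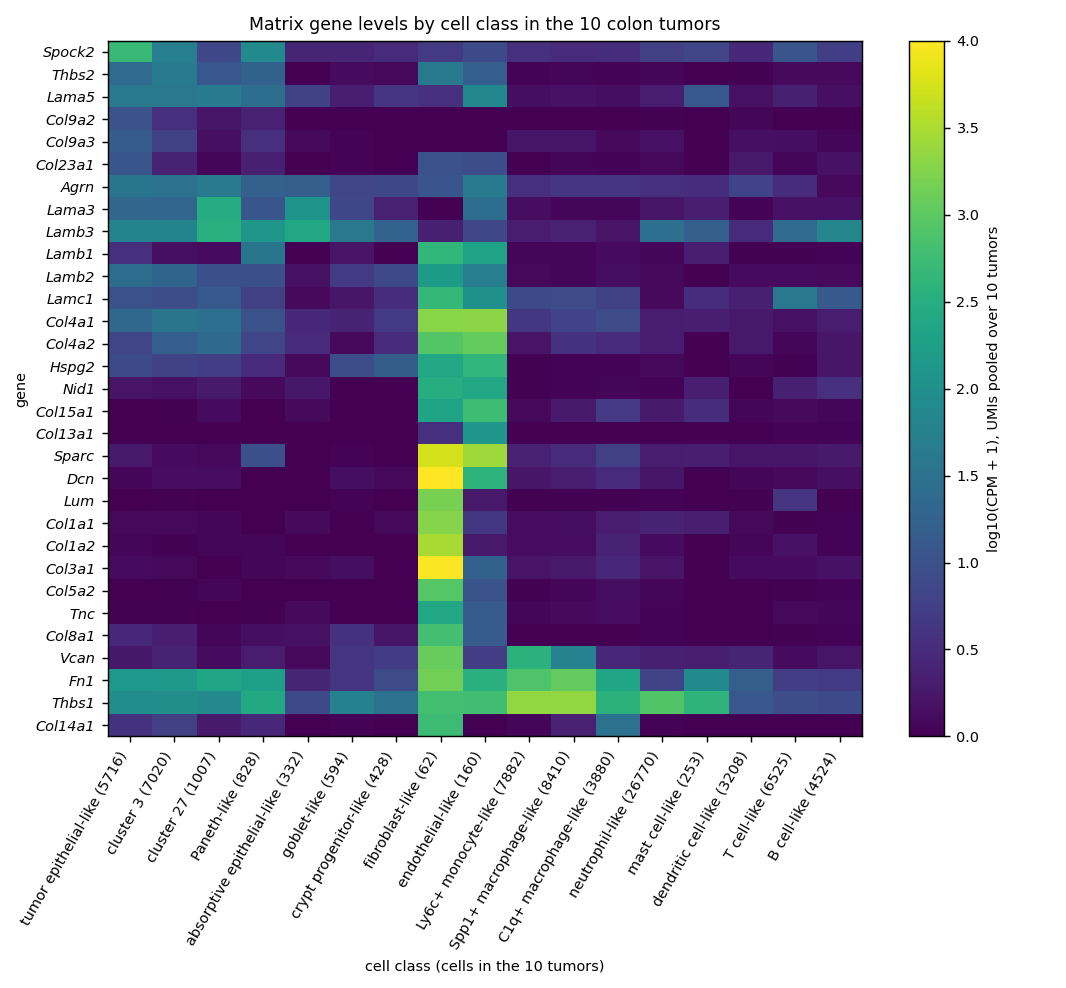
The heat map gives the level of 31 matrix genes (rows) in 17 cell classes of the tumors (columns, cell numbers in brackets) as log10(CPM + 1) of the UMIs pooled over 10 tumors. Fibroblast-like cells were highest for Dcn (10330 CPM) and Col3a1 (9515 CPM), and tumor epithelial-like cells for Spock2 (510 CPM).

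Tumor and mucosa epithelium were then compared, with UMIs summed over the epithelial cells of each library (1236 to 2259 cells and 22497007 to 39821566 UMIs in tumors, 2559 to 7349 cells and 62347672 to 83092334 UMIs in mucosa). The tissues differed in their epithelial classes: tumor epithelial-like cells were 5716 in tumors and 7 in mucosa, cluster 3 held 7020 and 17, and absorptive epithelial-like cells were 332 and 2876. Absorptive markers fell for 9 of 10 and Paneth markers rose for 6 of 6, and the part of this makeup in the changes below was not tested. Matrix genes were mostly higher in tumor epithelium. Of 36 matrix genes with enough counts for the test, 31 rose and 4 fell at an adjusted p under 0.05 (edgeR quasi-likelihood test, Benjamini-Hochberg over 15509 genes), and Hspg2 did not pass. Over all genes tested, 33.7% rose and 30.1% fell, 63.9% in either direction. Most of the 31 matrix genes that rose passed the filter on low counts through the tumors alone, which fixed their direction. The median of the matrix genes and the separation of samples given next are thus partly set by this filter. The median log2 fold change was 2.88 over the 36 matrix genes and 0.04 over all genes. In 30 of the 36 every tumor was above every mucosa sample, against 32.6% of all genes, and in 3 every tumor was below, against 13%. The other 32 matrix genes were not tested: they had 0 to 66 UMIs in tumor epithelium and 0 to 62 in mucosa epithelium, with 1.39 CPM as the highest level in any tumor. Without the 7 libraries labelled female, 28 rose and 2 fell, with 1 mucosa sample left that is assumed to vary like the tumors.

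Grouped by role, 8 of 8 tested laminin chains rose, 6 of 6 fibril-associated collagens, 3 of 3 fibril-forming collagens, 2 of 2 type IV chains and 3 of 3 transmembrane collagens. All of these fibril-forming and transmembrane genes passed the filter on low counts through the tumors alone, which fixed those counts in advance. The 1 tested endostatin-bearing collagen (Col18a1) rose, the 1 tested short-chain collagen (Col8a1) fell, and of 2 collagens outside these families 1 rose and 1 fell, so that 16 of 18 tested collagens rose and 2 fell. Col14a1 (fibril-associated) and Col2a1 (fibril-forming) had no UMI in mucosa epithelium, so that the filter on low counts fixed their direction. Thbs2, Col9a2 and Col17a1, with 1 to 3 UMIs there, passed that filter through the tumors alone, which fixed their direction as well. So did Fn1, Sparc, Nid1, Lama4, Lamb1, Col4a2, Col23a1 and most of the tested collagens given here by count only. All of these were under the filter's level in every mucosa sample. Spock2, Lama5 and Col9a3 needed tumors besides mucosa samples to pass it. Nid2 and Col28a1, which fell, needed the mucosa samples. The counts of genes that rose are thus partly set by the filter. Of 10 tested glycoproteins and proteoglycans, 7 rose and 2 fell. No type VI collagen chain, a microfibrillar collagen of connective tissue, had enough counts in epithelium to be tested.

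**Figure D3:**
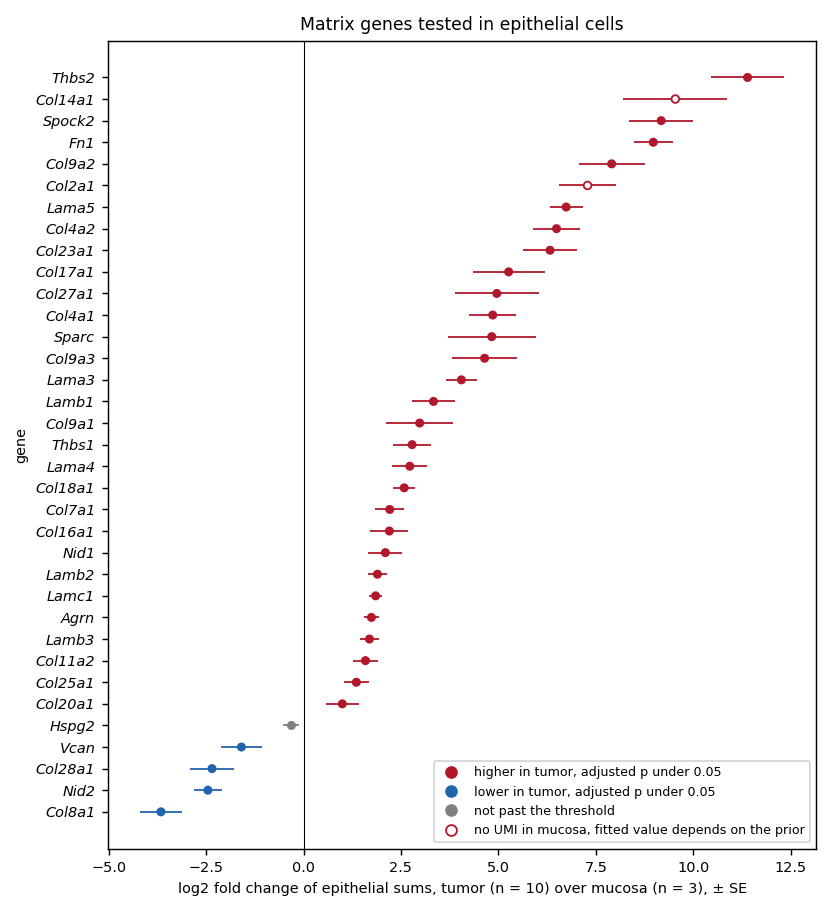
Points are the log2 fold changes of 35 tested matrix genes in epithelial sums, tumor (n = 10) over mucosa (n = 3), with bars of ± 1 SE. Red points rose (30), blue points fell (4) and the grey point, Hspg2, did not pass the test; open points (Col14a1 and Col2a1) had no UMI in mucosa epithelium, so their fitted value is no bound.

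Among the laminins, Lama3 and Lamb3 encode laminin chains that anchor epithelial hemidesmosomes. Lama3 was at 26.4, 33.9 and 74.2 CPM (lowest, median and highest tumor) and at 1.56, 2.40 and 1.95 CPM in the mucosa samples, without overlap, with a log2 fold change of 4.05 ± 0.40 (SE; edgeR, adjusted p = 2.22e-06). Lamb3 was already expressed in mucosa, at 12.4, 23.8 and 27.8 CPM, and was at 54.6, 79.7 and 101 CPM in tumors, with a log2 fold change of 1.69 ± 0.24 (edgeR, adjusted p = 4.59e-05). These chains thus differed in their level in mucosa.

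Lama5, an alpha chain of epithelial basement membranes, was at 12.98, 32.6 and 50.5 CPM (lowest, median and highest tumor) and at 0.353, 0.151 and 0.253 CPM in mucosa 1, 2 and 3. Its log2 fold change of 6.74 ± 0.42 (edgeR, adjusted p = 8.32e-08) exceeded that of the other 7 laminin chains tested. Lamb1, Lamb2 and Lamc1, chains shared by many laminin trimers, rose by 3.33 ± 0.55, 1.90 ± 0.24 and 1.85 ± 0.17 on the log2 scale. Their levels in tumor epithelium were 2.90 ± 1.49, 17.1 ± 3.93 and 6.996 ± 1.30 CPM (mean ± SD, n = 10). In mucosa the same chains were at 0.236 ± 0.0573, 3.84 ± 0.845 and 1.62 ± 0.114 CPM (n = 3). Lama4 rose by 2.73 ± 0.45. Lamb1 and Lama4 passed the filter on low counts through the tumors alone, which fixed their direction.

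Spock2 was the matrix gene with the most UMIs in tumor epithelium. It encodes testican-2, a secreted proteoglycan of the SPARC family, and lies on mouse chromosome 10 at 60106219 to 60135198 on the plus strand (GRCm38, GENCODE). Tumors 1 to 4 were at 318, 131, 97.5 and 259 CPM, tumors 5 to 8 at 329, 233, 355 and 356 CPM, and tumors 9 and 10 at 152 and 46.6 CPM. Mucosa 1, 2 and 3 were at 0.193, 0.429 and 0.337 CPM. The lowest tumor thus lay far above the highest mucosa sample, while tumors themselves spanned 46.6 to 356 CPM, and the log2 fold change was 9.17 ± 0.82 (edgeR, adjusted p = 1.15e-06).

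Thbs2, thrombospondin-2, a matricellular protein that binds collagen-modifying proteases, had 6774 UMIs in tumor epithelium and 1 in mucosa epithelium. Tumors were at 10.9, 21.1 and 39.6 CPM (lowest, median and highest), and mucosa 1, 2 and 3 at 0, 0 and 0.0120 CPM. The ratio of pooled levels was 5237, with a counting interval of 939.5 to 206900 that covers counting error only (exact 95%), and the direction was fixed by the filter on low counts, which Thbs2 passed through the tumors alone (edgeR, adjusted p = 6.31e-07). Thbs1, which encodes thrombospondin-1, was at 32.4, 78.3 and 159 CPM in tumors and at 17.2, 6.44 and 8.26 CPM in mucosa, a log2 fold change of 2.79 ± 0.48 (edgeR, adjusted p = 0.000216).

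The promoters of Spock2 and Thbs2 are shown because these genes had the largest fitted increases among those with UMIs in both tissues, and that of Col8a1 because it had the largest decrease. Sequences are from RefSeq (GRCm38.p6), read 5′ to 3′ on the strand of the gene, and end at or before the start site. Each stretch was searched on both strands for the TCF/LEF motif of Wnt target genes (CTTTGAT, or the variant that is spelled CTTTGAA), for the AP-1 motif (spelled TGANTCA) and for the TATA box (spelled TATAAA). Capitals mark a match.
Spock2, chr10:60106007-60106218, plus strand, a CTTTGAA match: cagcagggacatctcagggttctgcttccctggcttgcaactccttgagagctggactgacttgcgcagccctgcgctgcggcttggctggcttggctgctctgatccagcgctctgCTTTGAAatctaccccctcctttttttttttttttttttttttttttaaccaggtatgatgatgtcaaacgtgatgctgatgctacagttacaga
Thbs2, chr17:14694263-14694512, minus strand, TATAAA on the other strand: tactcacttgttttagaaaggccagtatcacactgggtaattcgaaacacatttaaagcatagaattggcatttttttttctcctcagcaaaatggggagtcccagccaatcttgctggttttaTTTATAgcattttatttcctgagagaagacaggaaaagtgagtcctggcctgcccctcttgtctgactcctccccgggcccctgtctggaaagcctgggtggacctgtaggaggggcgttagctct
Col8a1, chr16:57754738-57754987, minus strand, no match: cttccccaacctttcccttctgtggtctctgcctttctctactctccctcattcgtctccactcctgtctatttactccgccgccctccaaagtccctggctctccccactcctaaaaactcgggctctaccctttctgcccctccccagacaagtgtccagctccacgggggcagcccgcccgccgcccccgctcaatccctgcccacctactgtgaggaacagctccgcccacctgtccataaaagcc
Of 32851 mouse promoters in that table, 7.48% held the TCF/LEF letters in the 250 bases before the start, 6.75% the AP-1 letters and 12.4% TATAAA. Among 54 promoters of the 48 matrix genes that matched the table, 6 held the TCF/LEF letters, 1 the AP-1 letters and 8 TATAAA. A match is a description of the letters and not a bound site.

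Fn1, fibronectin, the main adhesive glycoprotein of provisional matrix, was at 66.5, 124 and 152 CPM (lowest, median and highest tumor) and at 0.273, 0.0504 and 0.265 CPM in mucosa 1, 2 and 3. Tumors lay within a narrow range for this gene, and the log2 fold change was 8.97 ± 0.50 (edgeR, adjusted p = 4.1e-08). The filter on low counts fixed the direction, since Fn1 passed it through the tumors alone. Agrn, agrin, a heparan sulfate proteoglycan of basement membranes, was at 16.3, 28.8 and 34.1 CPM in tumors and at 6.4, 5.95 and 8.67 CPM in mucosa, rising by 1.74 ± 0.19 (edgeR, adjusted p = 6.09e-06). Hspg2, perlecan, the other large heparan sulfate proteoglycan of the basement membrane, was at 3.95, 5.60 and 8.84 CPM in tumors and at 7.70, 4.66 and 5.80 CPM in mucosa. These ranges overlapped, and the log2 fold change of -0.31 ± 0.21 did not pass the test (edgeR, adjusted p = 0.201).

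The nidogens, which link laminin to type IV collagen, moved apart at very low levels. The filter on low counts limits both calls: Nid1 passed it through the tumors alone, which fixed its direction, and Nid2 needed the mucosa samples to pass. Nid1 rose by 2.10 ± 0.44 on the log2 scale (0.478 ± 0.206 CPM in tumors, 0.0894 ± 0.0496 in mucosa), with every tumor above every mucosa sample. Nid2 fell by 2.45 on the log2 scale (SE 0.35; edgeR, adjusted p = 5.07e-05), from 1.14, 0.769 and 1.35 CPM in mucosa 1, 2 and 3 to 0.107, 0.206 and 0.420 CPM (lowest, median and highest tumor), without overlap.

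Type IV collagen chains Col4a1 and Col4a2 form the basic network of all basement membranes. In epithelial sums Col4a1 was at 4.19, 17.9 and 39.5 CPM (lowest, median and highest tumor) and at 0.674, 0.580 and 0.506 CPM in mucosa 1, 2 and 3, a log2 fold change of 4.85 ± 0.61 (edgeR, adjusted p = 1.59e-05). Col4a2 was at 2.58, 9.17 and 12.1 CPM in tumors and at 0.0481, 0.126 and 0.0481 CPM in mucosa, a log2 fold change of 6.49 ± 0.60 (edgeR, adjusted p = 1.58e-06). The direction for Col4a2 was fixed, since it passed the filter on low counts through the tumors alone. Tumor 6 was lowest for both chains. The annotated starts of these genes lie 21 bases apart on opposite strands of chromosome 8, at 11312826 and 11312805 (GRCm38).

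Among other collagens, chains of the fibril-associated type IX collagen, best known from cartilage, rose in tumor epithelium. Col9a2 was at 0.924, 4.73 and 8.87 CPM (lowest, median and highest tumor) against 0, 0.0252 and 0.0120 CPM in mucosa (3 UMIs), a ratio of pooled levels of 347.6 (interval 118.7 to 1688). Col9a3 was at 1.22, 5.90 and 20.0 CPM against 0.481, 0.113 and 0.157 CPM, a log2 fold change of 4.64 ± 0.83 (edgeR, adjusted p = 0.000276). Col2a1, the fibril-forming collagen that type IX decorates in cartilage, had 152 UMIs in tumor epithelium and none in mucosa, at least 39.2-fold higher when 3 counts over the mucosa group are taken as the floor. Its level stayed low, from 0.252 to 0.852 CPM.

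The transmembrane collagens Col23a1 and Col17a1, the latter a hemidesmosome component, rose too. Col23a1 was at 0.924, 4.73 and 9.19 CPM (lowest, median and highest tumor) against 0.0642, 0.0504 and 0.0361 CPM in mucosa, a log2 fold change of 6.32 ± 0.70 (edgeR, adjusted p = 6.3e-06). Both transmembrane genes passed the filter on low counts through the tumors alone, which fixed their direction. Col17a1 was at 0.127, 0.608 and 1.42 CPM against 0, 0.0378 and 0 CPM (3 UMIs in mucosa), a ratio of pooled levels of 54.9 (interval 18.5 to 268.3). Col14a1, a fibril-associated collagen, had 766 UMIs in tumor epithelium and none in mucosa, at least 197-fold higher against the same floor. Sparc, a collagen-binding matricellular protein, rose by 4.83 ± 1.13 from 0.0250 ± 0.0335 CPM to 0.991 ± 0.915 CPM. It passed the filter on low counts through the tumors alone, which fixed its direction. Without the libraries labelled female it lost its call (log2 fold change 3.29 ± 1.40).

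Markers of other cells also rose in the epithelial sums. Summed over 7 neutrophil markers, all of which rose, tumors were at 164.2 to 944.7 CPM and mucosa at 6.38 to 18.03 CPM. The 8 C1q+ macrophage markers, of which 6 rose and 1 fell, were at 18.2 to 89.7 CPM in tumors and 6.88 to 9.30 CPM in mucosa. The 16 fibroblast markers, of which 6 rose and 2 fell, were at 117.1 to 820.7 CPM and 12.1 to 14.5 CPM, with Mgp alone at 481.3 CPM on average in tumors, and Bgn, Twist2, Dpt and Loxl1 at 0 in mucosa. Endothelial markers (12, of which 5 rose) were at 6.72 to 34.4 CPM and 3.44 to 4.38 CPM. For Thbs1, Fn1, Vcan, Col14a1, Sparc and the type IV chains, which these cells hold at high levels, the part of such RNA in the epithelial sums was not tested.

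Of the 4 matrix genes that fell in epithelium, Col8a1 had the largest change. It encodes a short-chain collagen of basement membranes and vessel walls. Mucosa 1, 2 and 3 were at 33.2, 5.45 and 4.66 CPM, and tumors at 0.592, 0.981 and 3.75 CPM (lowest, median and highest). The log2 fold change was -3.66 ± 0.53 (edgeR, adjusted p = 5.62e-05), and mucosa 1 stood apart from the other mucosa samples. Goblet-like cells held most of it in mucosa, at 35.4 CPM pooled, against 0.129 CPM in absorptive epithelial-like and 0.148 CPM in crypt progenitor-like cells. With goblet-like cells left out, the direction turned, to a log2 fold change of 1.55 ± 0.58 (edgeR, adjusted p = 0.0306), and without the libraries labelled female the call was lost (-1.93 ± 0.70, edgeR, adjusted p = 0.0601). Goblet markers in the epithelial sums were at 1712 to 10030 CPM in tumors and 19110 to 40070 CPM in mucosa.

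Vcan, versican, a large proteoglycan of provisional matrix, was at 0.378, 0.708 and 2.79 CPM in tumor epithelium (lowest, median and highest) and at 4.46, 2.42 and 1.504 CPM in mucosa, with overlap. Its log2 fold change of -1.59 ± 0.53 (edgeR, adjusted p = 0.0164) lost its call without mucosa 1 (-1.09 ± 0.61, adjusted p = 0.139), with doublets kept (adjusted p = 0.0963) and without the libraries labelled female (adjusted p = 0.156). Col28a1 fell by 2.35 on the log2 scale (SE 0.57; edgeR, adjusted p = 0.00257) from 0.712 ± 0.210 CPM, and was at 1.57 CPM in goblet-like, 0.271 CPM in crypt progenitor-like and 0.0647 CPM in absorptive epithelial-like cells of mucosa, pooled.

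**Figure D4:**
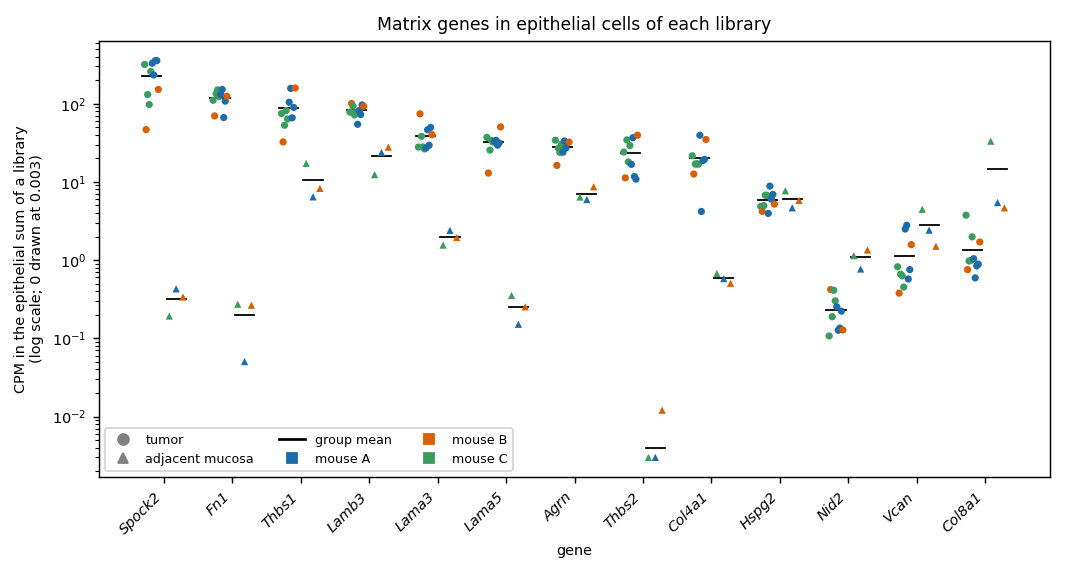
Each point is the CPM of a gene (x axis) in the epithelial sum of 1 library (y axis, log scale, 0 drawn at 0.003), circles for 10 tumors and triangles for 3 mucosa samples, colored by mouse, with the group mean as a line. Spock2, Fn1, Lama5 and Thbs2 separate without overlap, Hspg2 overlaps, and Nid2, Vcan and Col8a1 have lower means in tumors.

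Within tumor epithelium, matrix genes were unevenly spread over cell classes, and the pattern was seen tumor by tumor. Tumor epithelial-like cells (5716 cells, named from Wnt target genes such as Notum and Nkd1) had Spock2 at 239, 571 and 646 CPM (lowest, median and highest of 10 tumors). Cluster 3, another epithelial cluster of tumors (7020 cells, led by Gm26917, Gm28723, Adcy8 and Gkn3), had it at 19.6, 48.5 and 99.0 CPM in the same tumors. The ranges did not overlap, and Spock2 was higher in tumor epithelial-like cells in 10 of 10 tumors. Goblet-like cells of tumors were at 0 to 4.43 CPM. Col9a2 (3.80 to 16.5 against 0.783 to 3.48 CPM) and Col23a1 (4.28 to 17.4 against 0.592 to 2.61 CPM) had the same order in 10 of 10 tumors without overlap, and Col9a3 in 10 of 10 with overlap.

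Other matrix genes had the opposite order. Thbs2 was higher in cluster 3 (18.2 to 63.7 CPM) than in tumor epithelial-like cells (12.6 to 51.5 CPM) in 10 of 10 tumors, Col4a2 in 10 of 10 (5.11 to 24.2 against 1.06 to 11.5 CPM) and Col4a1 in 9 of 10, with overlapping ranges. These are descriptions of clusters and were not tested.

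The laminin chains Lamb3 and Lama3 peaked together in cluster 27, an epithelial cluster of 1007 tumor cells led by Sprr2b, Prss22, Aldh1a3 and Sprr2f. Lamb3 was at 212.0, 320.5 and 418 CPM there (lowest, median and highest of 10 tumors) and at 40.04, 63.1 and 88.1 CPM in tumor epithelial-like cells. Lama3 was at 169 to 392 against 15.6 to 29.9 CPM. For both chains all 10 tumors had the same order and the ranges did not overlap. Spock2 in cluster 27 was at 0.321 to 17.5 CPM.

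The same chains stood out in absorptive epithelial-like cells, the surface colonocytes. Pooled over mucosa, these cells had Lamb3 at 107.7 CPM and Lama3 at 12.8 CPM, and crypt progenitor-like cells had Lamb3 at 5.68 and Lama3 at 0.0246 CPM. In tumors, 5 libraries had 20 or more absorptive epithelial-like cells, with Lamb3 at 169 to 315 CPM and Lama3 at 64.7 to 204 CPM. In the 3 mucosa samples Lamb3 was at 84.99 to 178 CPM and Lama3 at 10.6 to 44.2 CPM, so the groups overlapped for Lamb3 and did not for Lama3. The class joins cluster 19, with 2 tumor and 2094 mucosa cells, and cluster 26, with 330 and 782. Tumor and mucosa values thus came mostly from different clusters. The part of this split was not tested, nor were these values.

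Paneth-like cells, found almost only in tumors here (828 tumor cells, 4 mucosa cells), had their own profile. Lamb1 was at 13.01 to 71.2 CPM in them and at 1.25 to 4.63 CPM in tumor epithelial-like cells, higher in 9 of 9 tumors without overlap. Fn1 was at 94.7 to 239 CPM and Thbs1 at 171 to 492 CPM across 9 tumors. Fn1 was low in the goblet-like cells of 9 tumors (0 to 10.2 CPM) and at 74.1 to 252 CPM in tumor epithelial-like cells, without overlap in 9 tumors. Enteroendocrine-like cells of mucosa (283 cells) had Spock2 at 22.3 CPM, Vcan at 24.1 CPM and Col8a1 at 19.3 CPM pooled, and tuft-like cells of mucosa (229 cells) had Col15a1 at 23.5 CPM and Vcan at 20.98 CPM.

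**Figure D5:**
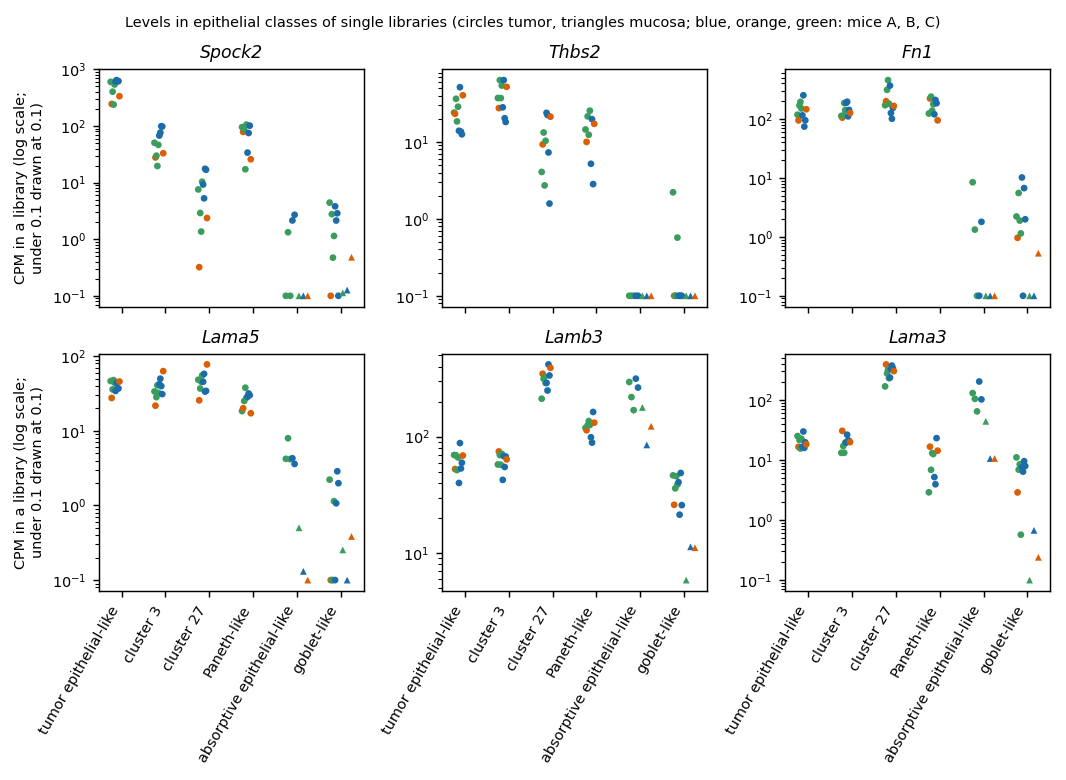
Each point is the CPM of a gene (panels) in an epithelial class (x axis) of 1 library with 20 or more cells of it (y axis, log scale, values under 0.1 drawn at 0.1), circles for tumors and triangles for mucosa, colored by mouse. Spock2 was highest in tumor epithelial-like cells, Thbs2 in cluster 3, and Lamb3 and Lama3 in cluster 27, at 169 to 418 CPM, by the median of tumors.

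Goblet-like cells were found in both tissues, which allowed a comparison within a class (9 tumors with 22 to 133 cells and 3 mucosa samples with 1291 to 1977). The class had 2 clusters: cluster 12 held 3558 of 4644 mucosa cells and 274 of 594 tumor cells, and cluster 24 held 1086 and 320, and the part of this split in the changes was not tested. Lamb3 rose here too. Of 5 matrix genes tested, 3 rose and 1 fell, and of 8180 genes 7.91% rose and 4.52% fell. Without the libraries labelled female 3 rose and 1 fell as well. Lamb3 was at 21.4, 38.8 and 48.8 CPM (lowest, median and highest tumor) and at 5.87, 11.3 and 11.1 CPM in mucosa 1, 2 and 3, a log2 fold change of 2.17 ± 0.27 (edgeR, adjusted p = 9.25e-05). All 9 tumors were above all mucosa samples for Lamb3, against 2.37% of all genes tested. Mucosa 1 was under the level of the filter on low counts for Lamb3. The gene thus needed tumors besides mucosa samples to pass it, and the filter favored a rise. Another of the genes that rose passed it through the tumors alone, which fixed its direction.

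Col8a1 fell within goblet-like cells, from 57.9, 17.2 and 17.98 CPM in mucosa to 0, 2.54 and 11.1 CPM (lowest, median and highest tumor, 26 UMIs in all), a log2 fold change of -3.30 ± 0.49 (edgeR, adjusted p = 0.000456). All 9 tumors were below, against 8.28% of all genes. Among tumors only tumor 1 reached the level of the filter on low counts. Col8a1 thus needed the mucosa samples to pass it, and the filter favored a fall. Thbs1 was at 8.31, 44.0 and 133 CPM in tumors and at 25.4, 14.2 and 18.9 CPM in mucosa, above every mucosa sample in 6 of 9. Its change of 1.68 ± 0.53 (edgeR, adjusted p = 0.0458) lost its call with the mouse as a block (adjusted p = 0.13), with DESeq2 (0.0973) without any single mucosa sample (0.0712 to 0.197) and without tumor 1, 3, 4, 5, 6 or 7 (0.0525 to 0.0773). Neutrophil markers in these goblet-like sums were at 59.8 to 1247 CPM in tumors and 0.254 to 3.54 CPM in mucosa, and their part in the Thbs1 level was not tested. Hspg2 was at 6.34 ± 3.20 CPM in tumors and 9.04 ± 1.21 CPM in mucosa and did not pass.

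Over all cells, where tissue composition enters, 39 of 52 tested matrix genes rose and 3 fell, against 36.4% and 34.0% of 17471 genes, 70.4% in either direction. In such sums, fewer cells of a type and less RNA per cell cannot be told apart. As in epithelium, many of the genes that rose passed the filter on low counts through the tumors alone, which fixed their direction. The members' median log2 fold change was 3.90 and that of all genes 0.031. Without the libraries labelled female 29 were past the threshold, and 40 without the fibroblast-like cells, the endothelial-like cells and the unnamed cluster 25. The summed level of the 7 immune markers was 2829 to 4957 CPM in tumors and 267.8 to 951.8 CPM in mucosa.

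Myeloid cells held most of the RNA of 3 matrix glycoproteins, Thbs1, Fn1 and Vcan. Thbs1 was the matrix gene with the most UMIs, 342703 in tumors, of which monocyte- or macrophage-like cells held 73.1% and neutrophil-like cells 18.6%. Over all cells it was at 284.8, 467.7 and 860.7 CPM (lowest, median and highest tumor) and at 6.91 to 15.4 CPM in mucosa, a log2 fold change of 5.73 ± 0.49 (edgeR, adjusted p = 3.04e-07). By class, Thbs1 was at 1191 to 3200 CPM in Ly6c+ monocyte-like cells and 857 to 3677 CPM in Spp1+ macrophage-like cells across 10 tumors. It was at 599 to 1226 CPM in neutrophil-like cells, whose range overlapped the lower ends of both, and at 164 to 702 CPM in C1q+ macrophage-like cells. Plasma cell-like cells were at 0 to 7.93 CPM in the same tumors.

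Fn1 had the same leading classes but not the neutrophils. It was at 566 to 981 CPM in Ly6c+ monocyte-like, 766 to 1855 CPM in Spp1+ macrophage-like and 165 to 358 CPM in C1q+ macrophage-like cells, and at 2.28 to 9.56 CPM in neutrophil-like cells. Monocyte- or macrophage-like cells held 74.5% and epithelial cells 23.4% of its tumor UMIs. In mucosa, 72 Ly6c+ monocyte-like cells had Fn1 at 1194 CPM pooled, and Thbs1 at 240.5 CPM.

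Vcan was mostly a product of Ly6c+ monocyte-like cells, at 207 to 476 CPM across 10 tumors, with 29.2 to 95.2 CPM in Spp1+ and 0.717 to 5.63 CPM in C1q+ macrophage-like cells. These 3 ranges did not overlap. Over all cells Vcan rose by 3.66 ± 0.54 (edgeR, adjusted p = 4.21e-05), from 1.63 to 4.05 CPM in mucosa to 15.3 to 68.1 CPM in tumors, while its epithelial value was lower. Col14a1 was at 18.4 to 44.8 CPM in C1q+ macrophage-like cells across 10 tumors, and all monocyte- or macrophage-like cells held 55.5% of its tumor UMIs.

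Few matrix genes had enough counts for a test in lymphocytes. In T cell-like cells (291 to 895 cells in tumors, 153 to 336 in mucosa) 1 of 6 tested matrix genes rose, against 11% of 9930 genes (8.25% fell), and 1 rose without the libraries labelled female. The sums of this class held 1159113 to 3826119 UMIs in tumors and 278362 to 1436564 in mucosa. For mucosa, 3 counts over the group correspond to 1.337 CPM. Of the 6, Fn1, Thbs1 and Lum had no UMI in mucosa, so that the filter fixed their direction. Against that floor they were at least 3.23-, 5.86- and 2.38-fold higher in tumors. DESeq2 called 4, which were Lamc1, Lum, Thbs1 and Fn1. Lamc1 was at 28.2, 39.9 and 60.4 CPM (lowest, median and highest tumor) and at 8.35, 3.59 and 13.2 CPM in mucosa 1, 2 and 3. These mucosa values rest on 20 UMIs in all. Mucosa 2 was under the level of the filter on low counts, so Lamc1 needed tumors besides mucosa samples to pass it. Every tumor was above every mucosa sample, as for 7.17% of all genes, while every tumor was below for 11.5% of all genes. The Lamc1 log2 fold change was 2.28 ± 0.31 (edgeR, adjusted p = 4.44e-05). The class leaves out the unnamed cluster 8, led by the lymphocyte genes Cd160, Cd7 and Gzma (455 tumor and 3861 mucosa cells), in which Lamc1 was at 0 to 9.44 CPM in 8 tumors and 4.86 to 8.05 CPM in mucosa, with overlap and no test. Lamb3 (23.6 ± 6.50 CPM in tumors, 18.1 ± 3.34 in mucosa) and Spock2 (11.01 ± 5.02 and 8.24 ± 5.82) did not pass.

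Lum, lumican, a small proteoglycan of collagen fibrils, had 86 UMIs in T cell-like cells of tumors and none in those of mucosa. It was at 0.723 to 6.63 CPM in all 10 tumors, of which tumors 5, 7 and 8 were under the mucosa floor of 1.337 CPM. It did not pass with edgeR (adjusted p = 0.0543) and passed with DESeq2 (adjusted p = 0.0323), with the mouse as a block (0.0445), with no filter (0.0371) and without tumor 1, 5, 7 or 8 (0.0345 to 0.0481). Fibroblast markers in these sums were at 5.80 to 20.7 CPM in tumors and 0.696 to 9.46 CPM in mucosa, and their part in the Lum level was not tested. Thbs1 and Fn1 in T cell-like cells were above 0 in all 10 tumors and at 0 in mucosa and did not pass (edgeR, adjusted p = 0.111 and 0.107; DESeq2, 0.00714 and 0.0214). Thbs1 passed without tumor 5 (edgeR, adjusted p = 0.0337). In these sums 6 neutrophil markers were tested and 4 rose, with the list at 123.0 to 857.0 CPM in tumors and 6.96 to 17.0 CPM in mucosa. The part of such RNA was not tested. Lamb3 was the leading matrix gene in B cell-like cells, at 64.8 CPM pooled in tumors and 19.4 CPM in mucosa.

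Stromal cells were rare in these preparations, and their numbers depended on the tumor. Fibroblast-like cells were found in 5 tumors: 13 in tumor 1, 3 in tumor 3, 37 in tumor 5, 8 in tumor 7 and 1 in tumor 9, with 3 in mucosa 3. By pericyte or smooth muscle markers, 18 tumor cells were in the range of mural cells, 12 of them in tumor 5, and 12 of the 18 lay in the fibroblast-like cluster. Matrix genes made up 4.63% of all UMIs of the tumor cells of this class. Dcn was at 10330 CPM, Col3a1 at 9515, Sparc at 5480, Col1a2 at 2999, Col1a1 at 1909 and Lum at 1502 CPM, pooled over these cells. Tumor 5 alone held, in its fibroblast-like cells, 68.3% of all Col3a1 UMIs and 59.8% of all Dcn UMIs of the 10 tumors.

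Col3a1, Col5a1, Col5a2, Dcn and Tnc over all cells were highest in tumor 5, which had the most fibroblast-like cells. Col3a1 was at 81.9 CPM in tumor 5 and 1.62 CPM in the median tumor, and at 0 to 0.464 CPM in mucosa. The Col3a1 log2 fold change of 5.92 ± 2.40 (edgeR, adjusted p = 0.0396) became 4.32 ± 1.77 without tumor 5 and lost its call without any single mucosa sample and with the mouse as a block (adjusted p = 0.11). Fibroblast markers over all cells were at 52.9 to 389.9 CPM in tumors and 11.4 to 14.1 CPM in mucosa. Dcn was at 0.116, 4.78 and 80.8 CPM (lowest, median and highest tumor) and at 0.275 to 3.89 CPM in mucosa, with overlap, and did not pass (2.66 ± 1.68, edgeR, adjusted p = 0.171). Dcn passed without the fibroblast-like cells, the endothelial-like cells and cluster 25 (2.67 ± 0.86, adjusted p = 0.013), with doublets kept (0.011) and with tumors summed per mouse (0.0383). Col5a1 and Col5a2, chains that regulate fibril width, were past the threshold (edgeR, adjusted p = 0.0168 and 0.0176) and were also highest in tumor 5, at 5.28 and 7.15 CPM against medians of 0.2397 and 0.277 CPM. Each had 2 UMIs in mucosa and passed the filter on low counts through the tumors alone, which fixed its direction. Both lost their call without mucosa 1 or mucosa 2, Col5a2 also without mucosa 3 (edgeR, adjusted p = 0.0504 to 0.0632). Without the libraries labelled female neither passed (adjusted p = 0.117 and 0.0861), nor did Col3a1 (0.1) or Col13a1 (0.192). Tnc, tenascin-C, did not pass (adjusted p = 0.104; 0.0376 with doublets kept) and was at 3.19 CPM in tumor 5 and 0.0999 CPM in the median tumor.

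Endothelial-like cells (160, all from tumors, in 9 of 10) were led by Sparc and type IV collagen chains. Sparc was at 2636 CPM, Col4a1 at 2042 and Col4a2 at 1149 CPM pooled. In the 4 tumors with 20 or more such cells, Col4a2 was at 1147 to 1334 CPM and Hspg2 at 283 to 567 CPM. These cells held 93.3% of the Col13a1 UMIs of the tumors, 54.2% of Col15a1 and 38.0% of Nid1. Over all cells Col13a1 rose (163 UMIs in tumors and none in mucosa, at least 20.4-fold higher against the floor of 3 counts over the group; edgeR, adjusted p = 0.024), where the filter again fixed the direction, and its call was lost without any single mucosa sample. Cluster 25, left unnamed, was led by Rgs5, Rarres2, Tagln and Myh11 and had a median of 903 UMIs a cell. Only 4 of its 1345 cells were in the mural range, and its matrix genes in tumors were led by Thbs1 (600.0 CPM) and Fn1 (228.9 CPM). Its 30 mucosa cells had 213 Dcn UMIs.

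Tumor epithelium was also compared between the 3 mice, whose ages differ, so that mouse and age cannot be told apart. None of 37 matrix genes tested passed (edgeR, lowest adjusted p = 0.242), against 0.505% of 15432 genes, and none passed with DESeq2. At an unadjusted p under 0.05 (edgeR) there were 3, Lama3, Spock2 and Col4a4, and no share of all genes is given for this cut. Spock2 was at 233 to 356 CPM in 4 tumors of mouse A, 46.6 and 152 CPM in 2 of mouse B and 97.5 to 318 CPM in 4 of mouse C. Without tumor 9, Lama5 and Lamb2 passed (edgeR, adjusted p = 0.0215 and 0.0254), but mouse B then had only tumor 10, assumed to vary like the tumors of the other mice and lowest of all tumors for both genes (12.98 and 7.52 CPM).

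Genes that act on or bind the matrix, from lists outside the rule, moved in both directions in the epithelial sums, where 33.7% of all genes rose and 30.1% fell. Of 19 tested collagen-modifying enzymes and chaperones, 11 rose and 4 fell, with a median log2 fold change of 0.899. The largest fitted changes were in P4ha3, a prolyl hydroxylase subunit (1.02 ± 0.545 CPM in tumors, 0 in mucosa, so that the filter fixed its direction), Serpinh1, the collagen chaperone (6.76 ± 1.43), and Bmp1, the procollagen C-proteinase (3.27 ± 0.37), and among those lower in Mia3 (-1.41 ± 0.15), which loads collagen for export, Crtap (-0.84 ± 0.15) and Sec23a (-0.75 ± 0.12).

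Of 20 tested matrix receptors, 13 rose and 5 fell. The integrin chain Itgb8 (6.14 ± 0.53), the laminin receptor Bcam (4.08 ± 0.38) and the syndecan Sdc3 (2.56 ± 0.35) rose most on the log2 scale, and Sdc2 (-2.73 ± 0.30) and the collagen-binding integrin chains Itga1 (-1.22 ± 0.32) and Itga2 (-0.78 ± 0.23) fell most. Of 24 other matrix proteins tested, 17 rose and 3 fell. Ccn2 (4.96 ± 2.94 CPM in tumors, 0 in mucosa), Mgp (481.3 ± 278.0 CPM and 0.340 ± 0.558 CPM) and Fras1 (5.35 ± 2.43 CPM and 0.00401 ± 0.00695 CPM) rose most, and Matn2 (-1.73 ± 0.34), Ntn4 (-1.22 ± 0.33) and Emilin1 (-1.05 ± 0.34) fell most. Ccn2, Fras1 and Serpinh1, at or near 0 in mucosa, passed the filter through the tumors alone, which fixed their direction.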

How the data were processed

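Single cells of 10 colon tumors and 3 adjacent mucosa samples were profiled with the 10x Genomics 3′ kit. The authors deposited raw UMI counts per gene and cell barcode for each library, made with Cell Ranger 6.0.0 on mm10 per the submitters' processing notes. Barcodes with under 500 UMIs, under 200 genes or over 25% mitochondrial UMIs were removed, and so were the barcodes with the highest simulated-doublet scores, at a rate of 0.8% for each 1000 barcodes. Cells were clustered (2000 variable genes without the 68 matrix genes, 30 principal components, 20 neighbors, Leiden resolution 1) into 42 clusters, named from fixed marker lists, which hold no matrix gene; naming thresholds were set after the cluster profiles had been seen.

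UMIs were summed per library and class (20 or more cells), and CPM is the count scaled to the total of that sum. Tumor and mucosa sums were compared with edgeR 4.0.16 (quasi-likelihood, TMM, filterByExpr; R 4.3.3), with Benjamini-Hochberg adjustment over all genes tested and a threshold of 0.05. The SE of an edgeR log2 fold change was taken as its absolute value over the square root of the F statistic. DESeq2 1.42.0 was an alternative. The fits were also run on data simulated with their own dispersions. Those libraries were drawn independently, so that run cannot address samples that share a mouse. Intervals and floors (3 counts over a group) cover counting error only. Samples of a mouse are not independent, so p-values measure the spread between samples.

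The matrix genes, gene lists and tests were chosen with earlier results of these data known. Genes named are the 13 given by symbol, the 10 with the largest change past the threshold in each comparison, the 3 with the highest level in each class and the 10 with the most UMIs in epithelium of either tissue. Lama4, Lamb1, Col28a1, Col1a1 and Col1a2 were named after their values were seen. Tumors and mucosa with the same mouse code come from the same animal, so the mouse as a block was an alternative; deviations of tumors and mucosa of a mouse correlated at 0.152, 0.103 and 0.244 in epithelial sums (mice A, B and C). The values of 1 of the 68 genes are not reported here; it stays in the counts. Promoter sequences came from RefSeq (GRCm38.p6).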

Additional observations from a re-analysis of the deposited data

Results flagged for a closer look

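Only matrix genes named by the rule above were examined for a tumor far from the others. In epithelial sums, 5 of them had 1 tumor far from the other 9 by Dixon's criterion. Lama3 was at 74.15 CPM in tumor 10 (next 49.7) and Lamb2 at 7.52 CPM in the same tumor (next 14.73). Sparc was at 3.129 CPM in tumor 6 (next 1.644) and Nid1 at 0.9725 CPM there (next 0.6027). Col8a1 was at 3.753 CPM in tumor 1 (next 1.984).

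In all-cell sums, tumor 5 held 37 of the 62 fibroblast-like tumor cells and stood apart for 8 of the genes examined. These were Col3a1 at 81.87 CPM, Dcn at 80.79, Sparc at 53.31, Lum at 13.14, Col5a2 at 7.154, Col8a1 at 6.771, Col5a1 at 5.281 and Tnc at 3.186 CPM. Col1a2 and Col1a1, which were not examined, were also highest in tumor 5, at 25.61 and 16.95 CPM (next 4.53 and 2.732). Tumor 10 stood apart for Lama3 at 34.64 CPM, Agrn at 9.001 CPM and Lamb2 at 4.061 CPM. In all, 61 groups were examined, and chance marks about 1 in 20.

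Tnc over all cells was higher in each tumor than in its own mucosa in mice A and B and lower in mouse C; the mean difference in mouse A was 0.883 CPM, carried by tumor 5 at 3.186 CPM with the other tumors of mouse A at 0.0778 to 0.166 CPM and its mucosa at 0, and the difference between mice was not tested.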

How the results depend on the processing

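Over the settings tried, the count of matrix genes past the threshold in epithelial sums (35) ranged from 30 to 39, and that in all-cell sums (42) from 29 to 51. Leaving out 1 library at a time gave 34 to 35 in epithelium, 34 to 45 over all cells, 3 to 4 in goblet-like cells, 1 to 3 in T cell-like cells and 0 to 2 between mice. In goblet-like cells the count of 4 became 9 with no filter on low counts and 7 with tumors summed per mouse. In T cell-like cells the count of 1 became 4 with DESeq2, 3 with no filter, 2 with tumors summed per mouse and 2 with the mouse as a replicate block, which added Lum (adjusted p = 0.0445). The block left 35 in epithelium, 41 over all cells, where Col3a1 and Lum lost their call, and 3 in goblet-like cells, where Thbs1 did. Col8a1 in epithelium turned to a log2 fold change of 1.546 without goblet-like cells; none of the other genes named by the rule that were past the threshold was reversed (genes outside it, such as Col28a1, were not run one by one), while Hspg2 in epithelium, not past the threshold, ranged from -0.476 to 0.263. The settings without the libraries labelled female and without the fibroblast-like cells, the endothelial-like cells and cluster 25 were chosen after seeing the data. The comparison between mice was not run without the libraries labelled female, since mouse B has no others. For settings other than the main one, here and above, no share of all genes past the threshold is given. Shifts of matrix genes therefore cannot be told apart from shifts of every gene. The causes of these shifts were not tested. Depth limits the 32 matrix genes not tested in epithelium: 3 counts over the mucosa group correspond to 0.0134 CPM.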
